A study of Mus musculus with 6 samples.

Results

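The dermal collagen and elastic fibre genes are 40 genes that encode the fibres of the connective tissue of skin and the proteins that build them. They were chosen by gene symbol, from what they encode: fibrillar and other collagens, collagen-processing and crosslinking enzymes, small proteoglycans, adhesive glycoproteins and elastic fibre genes. All 40 were among the 18404 genes of the count table, and all 40 were among the 14920 genes that passed the filter on low counts. Mouse ear skin was collected on postnatal day 3. There were 3 libraries labelled Vegfr2ecko, in which Kdr had been deleted in endothelium (here ecko), and 3 control libraries. Kdr encodes VEGFR2, the receptor through which VEGF-A acts on endothelial cells. Pups of both groups received tamoxifen, and the study's design gives a dose of 60 µg per day starting on postnatal day 1, with 48 h in the series name.

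The labels call the controls only "Control", and the design text calls them littermates. The driver of the recombinase is not stated in the sources used here. The libraries are of whole ear skin, so they hold fibroblasts, keratinocytes, muscle, cartilage and other cells besides endothelium. In such RNA, fewer cells of a type and less RNA per cell cannot be told apart. Whether replicates are separate animals is not in the labels, so a p-value here reflects the spread of these 6 samples alone, which may be technical.

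Collagen fibrils give dermis its tensile strength, and elastic fibres let it recoil. Dermal fibroblasts make most of both. Procollagen chains are hydroxylated and folded in the endoplasmic reticulum, trimmed outside the cell and crosslinked by lysyl oxidases, while elastin is laid down on microfibrils of fibrillin. The comparison asks whether these transcripts, made largely by cells other than the ones in which Kdr was deleted, differed in ecko skin.

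Library totals ran from 16987130 to 17979182 expected counts. Kdr had 348, 431 and 370 expected counts in ecko and 1599, 1860 and 1337 in the controls, a log2 fold change of -2.05 ± 0.12 (SE; edgeR adjusted p 0.0002). Fibroblast markers were present at summed levels of 1883 to 1956 CPM (counts per library of equal size, by TMM scaling) in ecko and 1844 to 1991 CPM in the control libraries, from 14 of 15 listed genes. Keratinocyte markers summed to 24983 to 27764 CPM in the ecko libraries, against 23614 to 30708 CPM in the control libraries. Cartilage markers summed to 167 to 184 CPM in the ecko libraries, against 163 to 182 CPM in the control libraries. Most of that sum came from Col11a1 (means of 71.18 CPM in ecko and 73.46 CPM in control) and Sox9 (67.79 and 62.61 CPM). Col2a1, the main cartilage collagen, had no more than 21 expected counts in any library. Skeletal muscle markers summed to 9643 to 11803 CPM in the ecko libraries, against 6987 to 12367 CPM in the control libraries, the lowest value being that of control 3.

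None of the 40 genes passed the edgeR quasi-likelihood test for a difference between ecko and control (adjusted p under 0.05). The test called 0 members higher and 0 lower, where over all 14920 genes it called 0% higher and 0.0067% lower, that gene being Kdr. Unadjusted p was under 0.05 for 0 of 40 members and for 9.01% of all genes. DESeq2 called 0 members, where over the 15746 genes counted as tested there it called 0.546% higher and 0.165% lower. Limma-voom called 0 members, where over all genes it called 0% higher and 0.0067% lower. Log2 fold changes of the 40 had a median of 0.025, against -0.002 over all genes tested. They were above 0 for 29 members and below for 11, and above 0 for 49.5% of all genes. The count above 0 changed with the library left out, as given below. Fold changes ran from 0.922 for Mfap2 to 1.083 for Loxl2.

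A p that misses the threshold does not show that levels were equal, but the intervals bound the differences. All 40 of the 95% intervals included no difference. Their lowest bound was a fold of 0.807, for Mfap2, and their highest was 1.326, for Loxl3, the least abundant member. The next highest bounds were 1.253 for Postn and 1.234 for Lox. For Col3a1 the interval ran from 0.912 to 1.159, and for Col1a2 from 0.887 to 1.140. The SE of the log2 fold change had a median of 0.074 among the members and 0.103 over all genes tested.

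**Figure D1:**
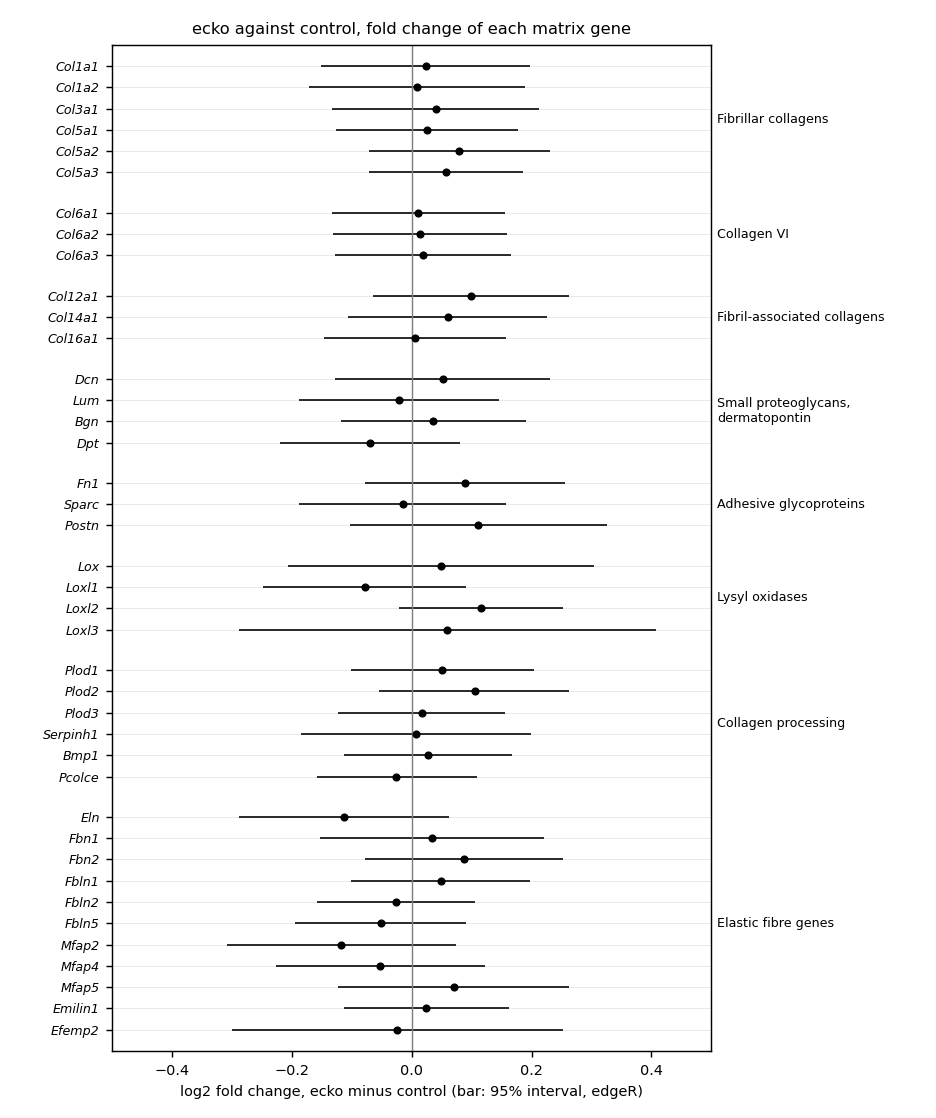
Log2 fold change, ecko minus control, of each of the 40 genes, with rows in groups by role. Points are edgeR estimates from 3 libraries a group and bars are 95% intervals. All 40 bars cross 0, and estimates run from -0.118 to 0.115.

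The genes of type I and type III collagen stood near the top of the tissue by CPM, which is not corrected for transcript length. On that scale Col3a1, the chain of type III collagen, ranked first among all genes tested, and Col1a2 and Col1a1, the chains of type I collagen, ranked 2 and 4. Values below are given in replicate order. Col3a1 had 17230, 16629 and 16752 CPM in the ecko libraries, against 15260, 16251 and 17708 CPM in the control libraries. Col1a2 had 9617, 9346 and 9634 CPM in the ecko libraries, against 8845, 9072 and 10512 CPM in the control libraries. For both genes the 3 ecko libraries lay inside the range of the controls. Log2 fold changes were 0.040 ± 0.078 (SE) for Col3a1 and 0.009 ± 0.082 for Col1a2, with edgeR adjusted p of 0.892 and 0.980. Col1a1, with a log2 fold change of 0.023 ± 0.079, averaged 8796 ± 191.4 CPM in the ecko libraries, against 8660 ± 731.5 CPM in the control libraries (SD, n = 3 each).

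RefSeq promoters (GRCm38.p6) of the 3 members highest in CPM that the table holds are given below. Each line is the 250 bases before the gene start on the gene's strand, 5′ to 3′. Capitals mark the CCAAT box written as CCAAT, the TATA box searched as TATAAA and the GC box searched as GGGCGG, each on either strand.
Col3a1 promoter, chr1:45311288-45311537, plus strand: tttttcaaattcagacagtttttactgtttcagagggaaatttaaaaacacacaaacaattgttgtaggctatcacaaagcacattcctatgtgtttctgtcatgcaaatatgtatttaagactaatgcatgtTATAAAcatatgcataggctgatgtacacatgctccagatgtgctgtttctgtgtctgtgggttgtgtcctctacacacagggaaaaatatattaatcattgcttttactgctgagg
Col1a2 promoter, chr6:4505368-4505617, plus strand: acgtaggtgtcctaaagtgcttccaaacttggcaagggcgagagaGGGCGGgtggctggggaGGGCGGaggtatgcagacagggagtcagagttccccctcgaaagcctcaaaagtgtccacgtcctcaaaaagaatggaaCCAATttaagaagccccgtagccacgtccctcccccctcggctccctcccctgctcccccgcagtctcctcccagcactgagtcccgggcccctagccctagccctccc
Sparc promoter, chr11:55420081-55420330, minus strand: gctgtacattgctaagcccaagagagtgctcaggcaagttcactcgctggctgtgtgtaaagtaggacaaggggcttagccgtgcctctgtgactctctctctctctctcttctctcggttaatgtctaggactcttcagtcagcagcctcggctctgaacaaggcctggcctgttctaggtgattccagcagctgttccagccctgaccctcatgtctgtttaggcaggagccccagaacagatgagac

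These windows differ in composition, with 35.2% G and C before Col3a1, 62% before Col1a2 and 54% before Sparc. TATAAA begins 117 bases before the start of Col3a1, and CCAAT begins 109 bases before that of Col1a2. The table held 30 promoters of 23 members. The GC box letters were in 60% of the 30 and in 32.7% of all 32851 promoters of the same length. CCAAT was in 20% of the member promoters and 33.8% of all, and TATAAA in 10% and 12.4%. These are matches of letters, with overlapping windows where a gene has several starts, and no binding was measured.

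Type V collagen sets the width of collagen fibrils. Col5a2 had 1137, 1116 and 1092 CPM in the ecko libraries, against 1002, 1031 and 1135 CPM in the control libraries, with a log2 fold change of 0.079 ± 0.068. Col5a3 had 276.4, 272.7 and 264.2 CPM in the ecko libraries, against 256.7, 254.9 and 270.4 CPM in the control libraries, with 0.057 ± 0.058. In both genes ecko 1 was the highest library and the groups overlapped through control 3. Col5a1, with a log2 fold change of 0.026 ± 0.068, averaged 1470 ± 23.81 CPM in the ecko libraries, against 1444 ± 93.28 CPM in the control libraries (SD, n = 3 each). Adjusted p over the 6 fibrillar collagen genes ran from 0.739 to 0.980.

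Type VI collagen forms beaded filaments around cells and fibres. Col6a2 had 1562, 1585 and 1667 CPM in the ecko libraries, against 1555, 1550 and 1663 CPM in the control libraries. Col6a3 had 1533, 1600 and 1644 CPM in the ecko libraries, against 1576, 1499 and 1639 CPM in the control libraries. The 3 chains, Col6a1 included, had log2 fold changes of 0.011 to 0.019, and in all 3 the highest library was ecko 3. The fibril-associated collagens, which sit on the surface of fibrils, were Col12a1, Col14a1 and Col16a1. Col12a1 had 587.1, 602.3 and 577.9 CPM in the ecko libraries, against 532.2, 510.8 and 607.7 CPM in the control libraries, with a log2 fold change of 0.099 ± 0.074. Col14a1 had 488, 505.9 and 485.6 CPM in the ecko libraries, against 439, 455.5 and 524.5 CPM in the control libraries, with 0.060 ± 0.075. In both genes the ecko libraries lay above control 1 and control 2 and below control 3. Col16a1 had a log2 fold change of 0.005 ± 0.069.

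**Figure D2:**
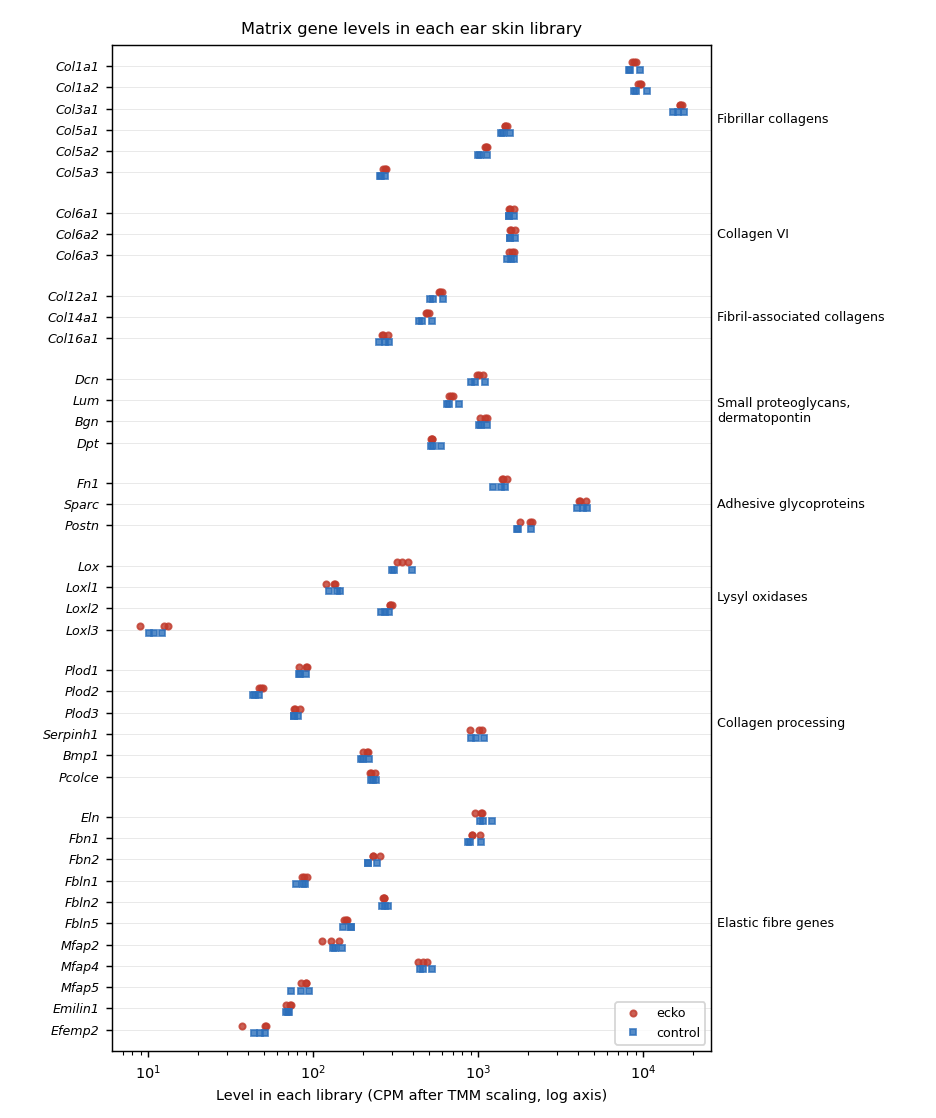
Level of each of the 40 genes in each library, in CPM on a log axis, with ecko as circles above the control squares of the same gene. Levels run from 8.85 CPM for Loxl3 in ecko 1 to 17708 CPM for Col3a1 in control 3, and the groups overlap in all genes but Loxl2.

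The small leucine-rich proteoglycans bind collagen and control fibril spacing. Dcn, the decorin gene, had 1076, 1008 and 978.4 CPM in the ecko libraries, against 908.7, 949.6 and 1096 CPM in the control libraries. Bgn, the biglycan gene, had 1130, 1028 and 1093 CPM in the ecko libraries, against 1008, 1036 and 1126 CPM in the control libraries. Their log2 fold changes were 0.052 ± 0.081 and 0.036 ± 0.070. Dpt encodes dermatopontin, a matrix protein that binds decorin. It had 518.2, 526.6 and 523.4 CPM in the ecko libraries, against 518.2, 531.6 and 595.8 CPM in the control libraries, and its log2 fold change of -0.070 ± 0.068 had an adjusted p of 0.773. Lum, the lumican gene, had -0.021 ± 0.075.

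Sparc encodes a collagen-binding glycoprotein and was the member with the fourth highest CPM. It had 4112, 4093 and 4515 CPM in the ecko libraries, against 3974, 4305 and 4575 CPM in the control libraries, with a log2 fold change of -0.015 ± 0.078. Postn, the periostin gene, had 2052, 2130 and 1793 CPM in the ecko libraries, against 1732, 1706 and 2094 CPM in the control libraries. The groups crossed, since ecko 3 and control 3 each stood apart from the other 2 libraries of their group, and the log2 fold change was 0.111 ± 0.097 (adjusted p 0.740). Fn1, the fibronectin gene, had 1421, 1488 and 1401 CPM in the ecko libraries, against 1227, 1370 and 1455 CPM in the control libraries, with 0.089 ± 0.076 (adjusted p 0.732).

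Lysyl oxidases start the crosslinking of collagen and elastin. Loxl2 was the 1 member of 40 whose groups did not overlap. It had 292.7, 298.6 and 292.7 CPM in the ecko libraries, against 256.4, 273.7 and 286 CPM in the control libraries. The share of all genes without overlap was 7.55% on the higher and 8.11% on the lower side, and the members' shares were below it. The log2 fold change of Loxl2 was 0.115 ± 0.062, with an unadjusted p of 0.0904 and an adjusted p of 0.607, the smallest of the members. Lox had 342.9, 376.6 and 320.3 CPM in the ecko libraries, against 309.1, 298.1 and 398.5 CPM in the control libraries. Its lowest and highest values were both controls, and its log2 fold change was 0.048 ± 0.113. Loxl1, which acts on elastin, had 119.1, 136.3 and 133 CPM in the ecko libraries, against 124.6, 140.1 and 145.4 CPM in the control libraries, with -0.079 ± 0.077. Loxl3 had only 159 to 235 expected counts per library and a log2 fold change of 0.059 ± 0.157.

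None of the hydroxylase, chaperone and proteinase genes passed the test. Plod2 encodes the lysyl hydroxylase of collagen telopeptides. It had 46.85, 49.85 and 48.14 CPM in the ecko libraries, against 43.28, 44.33 and 47.11 CPM in the control libraries, with a log2 fold change of 0.105 ± 0.072 (adjusted p 0.677). Plod1, the lysyl hydroxylase of the helix, had 82.24, 89.77 and 91.72 CPM in the ecko libraries, against 89.99, 82.84 and 81.64 CPM in the control libraries. Plod1 was the only member lowest in control 3. Serpinh1, the collagen chaperone HSP47, had 890.5, 1017 and 1060 CPM in the ecko libraries, against 968.1, 907.1 and 1077 CPM in the control libraries. Pcolce, which speeds up removal of the procollagen C-propeptide, had 224.4, 236.2 and 221.5 CPM in the ecko libraries, against 230.8, 222.7 and 240.8 CPM in the control libraries. Serpinh1 and Pcolce had log2 fold changes of 0.007 ± 0.087 and -0.026 ± 0.060. The proteinase gene Bmp1 and the hydroxylase gene Plod3 had 0.027 ± 0.064 and 0.017 ± 0.063.

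The 11 elastic fibre genes divided into 5 with an estimate above 0 and 6 below, and the median of their log2 fold changes was -0.024. Eln, the elastin gene, had 959.2, 1051 and 1043 CPM in the ecko libraries, against 1024, 1062 and 1218 CPM in the control libraries. Ecko 2 and ecko 3 lay between control 1 and control 2, and the log2 fold change was -0.114 ± 0.079 (adjusted p 0.681). Mfap2, a microfibril glycoprotein gene, had 113.3, 128.3 and 142.3 CPM in the ecko libraries, against 134.6, 132.6 and 149.4 CPM in the control libraries, with -0.118 ± 0.086 (adjusted p 0.694). Fbn1, the main fibrillin gene, had 913.8, 1031 and 920.4 CPM in the ecko libraries, against 870.3, 888.8 and 1041 CPM in the control libraries, with 0.033 ± 0.085. Eln and Mfap2 had estimates below 0 and Fbn1 above, and the groups of all 3 overlapped. The other members were the fibrillin gene Fbn2 (0.087), the fibulin genes Fbln1 (0.048), Fbln2 (-0.027), Fbln5 (-0.052) and Efemp2 (-0.024), the microfibril-associated genes Mfap4 (-0.053) and Mfap5 (0.070), and Emilin1 (0.024), each as a log2 fold change. Their adjusted p ran from 0.738 to 0.960.

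Some members share exons with other genes of the table, and the strand setting of the counting is not given in the sources used here. In GENCODE M21 an exon of Loxl3 overlaps Htra2, one of Plod3 overlaps Znhit1, one of Mfap4 overlaps Mapk7 and one of Efemp2 overlaps Mus81, each on the opposite strand. Htra2 averaged 16.0 CPM, above the 11.3 CPM of Loxl3, and Znhit1, Mapk7 and Mus81 averaged 26.6, 29.2 and 13.0 CPM. Without strand, their reads in the shared stretches could not be told apart from those of the members. How many reads fall there was not measured, so the values of these 4 members are less certain. Pcolce overlaps Fbxo24 on the same strand, which averaged 0.367 CPM. Loxl2, Loxl3 and Plod3 were the members with expected counts that are not whole.

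Per kilobase of the principal transcript in GENCODE M21, which is not stated to be the annotation used for counting, levels spanned 2990 to 2.75 CPM per kb. Col3a1 had 3032 CPM per kb in the ecko libraries, against 2949 CPM per kb in the control libraries. Sparc ranked second, with 1843 CPM per kb in the ecko libraries, against 1863 CPM per kb in the control libraries, followed by Col1a2 and Col1a1. Postn, Dcn and Bgn came next, ahead of Serpinh1 and the collagen VI genes Col6a2 and Col6a1. Eln had 264.1 CPM per kb in the ecko libraries, against 285.8 CPM per kb in the control libraries. Fbn1 was lower, with 79.78 CPM per kb in the ecko libraries, against 77.98 CPM per kb in the control libraries. The lowest were Plod2, with 13.23 CPM per kb in the ecko libraries, against 12.31 CPM per kb in the control libraries, and Loxl3.

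The ratio of partner genes within a library does not depend on the scaling between libraries. Type I collagen is assembled from a pair of alpha1 chains and a single alpha2 chain. Per kilobase the ratio of Col1a1 to Col1a2 was below 1, at 0.832 in ecko and 0.825 in the controls. The log2 ratio of CPM, not per length, of Col6a1 to Col6a2 was -0.018, -0.028 and -0.010 in ecko and -0.011, -0.014 and -0.023 in the controls. Its values over the 6 libraries spanned the narrowest range of the 6 ratios, and the genes lie 85.2 kb apart on chromosome 10. The ratio of Fbn2, the fibrillin of developing tissue, to Fbn1 was the only one without overlap. Its log2 ratio of CPM was -1.995, -2.014 and -2.005 in ecko and -2.024, -2.058 and -2.090 in the controls, a difference of 0.052 with a two-sided exact permutation p of 0.1. That is the smallest p that 3 against 3 libraries can give, and adjusted over the 6 ratios it was 0.6. The other 5 ratios had exact permutation p of 0.4 to 0.9, and adjusted values of 0.84 to 0.9.

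**Figure D3:**
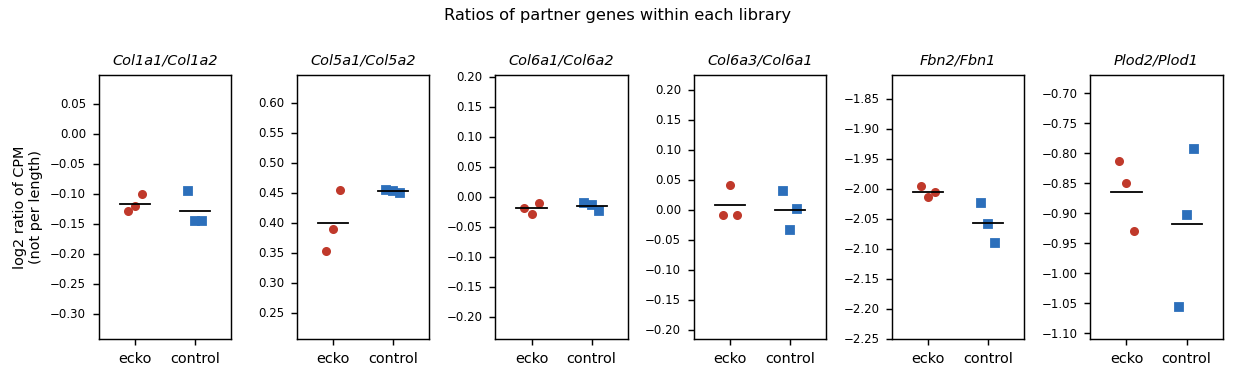
Log2 ratio of CPM, not per length, of partner genes in each library, with ecko circles left of control squares and a line at each mean. Every panel spans the same range of log2 units. Col6a1/Col6a2 spans the narrowest range, and Fbn2/Fbn1 is the only ratio whose groups do not overlap.

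Together the 40 genes took 6.17%, 6.08% and 6.20% of the expected counts in ecko and 5.68%, 5.86% and 6.33% in the controls. The means were 6.15% ± 0.06 in ecko and 5.96% ± 0.33 in the controls (SD, n = 3 each), a difference of 0.19 percentage points with a two-sided exact permutation p of 0.4. The difference was 0.05 without control 1 and 0.374 without control 3, where the exact p was 0.8 and 0.1, the smallest that 3 against 2 libraries can give. The 3 ecko libraries lay between control 2 and control 3. Control 3 was the highest library for 22 of 40 members, 55%, and for 27.5% of all genes tested. Control 1 was the lowest library for 18 members, 45%, against 13.8% of all genes, and the highest for 0. The ecko libraries were highest for 3, 8 and 6 members, and lowest for 8, 1 and 1. The coefficient of variation over 3 libraries had a median of 3.68% in ecko and 7.13% in the controls, and 80% of the members varied more among the controls, against 63.6% of all genes.

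**Figure D4:**
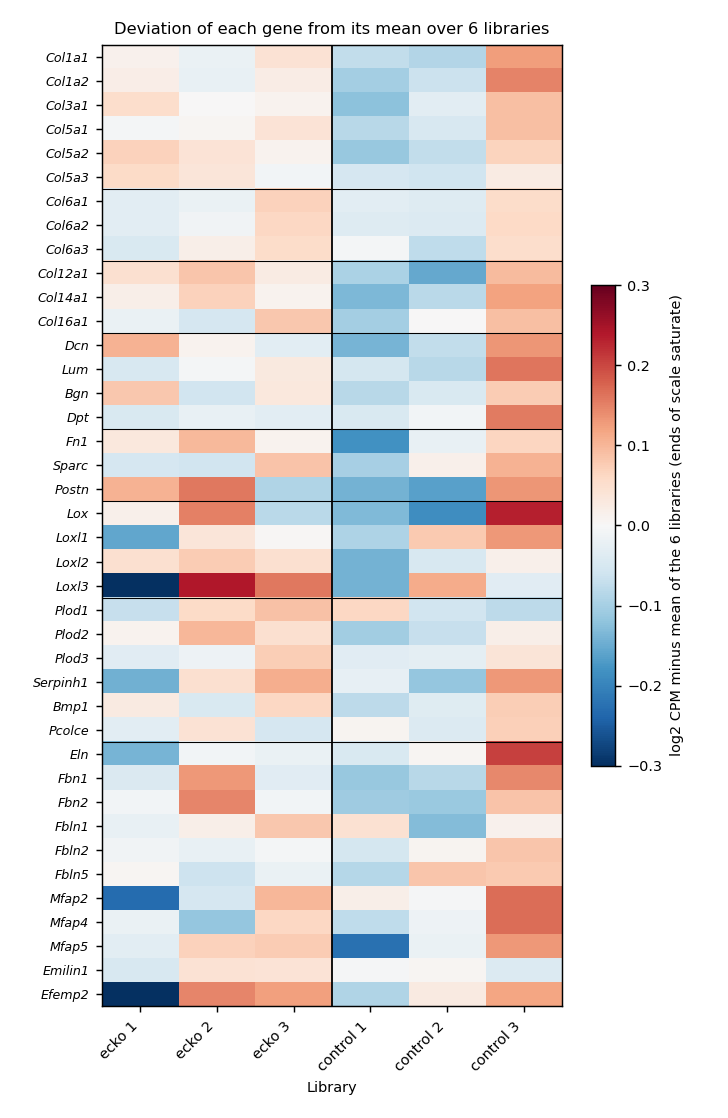
Log2 CPM of each of the 40 genes in each library minus its mean over the 6 libraries, red above and blue below, with ecko left of the vertical line and horizontal lines between role groups. Control 3 is mostly red and control 1 and control 2 mostly blue, while ecko 1 is darkest blue for Loxl3 and Efemp2.

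**Figure D5:**
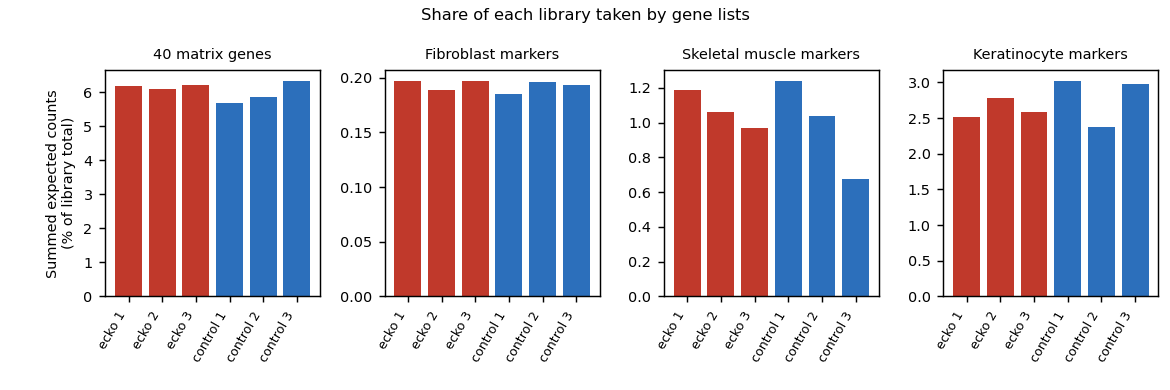
Share of the expected counts of each library taken by the 40 genes and by 3 marker lists, with bars from 0 and ecko left of control. The 40 genes take 5.68% to 6.33%, while skeletal muscle markers range from 0.678% in control 3 to 1.24% in control 1.

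The count of members without overlap depended on the library left out. Without control 3 the groups of 19 members did not overlap, all higher in ecko, against 12.4% of all genes higher and 14% lower. The 19 were all 6 fibrillar collagen genes, Col6a1, Col6a2, Col12a1, Col14a1, Dcn, Lum, Fn1, Postn, Lox, Loxl2, Plod2, Fbn1 and Fbn2. The median log2 fold change was then 0.074, with 35 members above 0, and 10 members had an unadjusted p under 0.05, against 9.28% of all genes. The edgeR test still called 0 of them, with a smallest adjusted p of 0.398, for Col12a1. Without control 1 the direction turned, to a median of -0.006 with 15 members above 0. Then 1 member was higher without overlap, against 15.1% of all genes, and 5 were lower, against 15.6%, namely Dpt, Loxl1, Eln, Fbln2 and Fbln5. Without control 2 the median was -0.001, with 20 members above 0 and 20 below. Then 1 member was higher without overlap and 0 lower, against 13% and 13.2% of all genes. Without ecko 1 there were 5 higher and 0 lower, against 10.2% and 10.4%. Without ecko 2 there were 1 higher and 0 lower, against 12.9% and 14.1%. Without ecko 3 there were 2 higher and 1 lower, against 13.2% and 13.3%.

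Control 3 was also the library with the least skeletal muscle RNA. Muscle markers summed to 11803, 10595 and 9643 CPM in the ecko libraries, against 12367, 10356 and 6987 CPM in the control libraries, from all 15 listed genes. Control 1, lowest for more members than any other library, had the most. With the muscle level as a covariate edgeR called 0 members, with a median log2 fold change of 0.054, and 4 of 40 members (Col12a1, Fn1, Loxl2 and Mfap5) had an unadjusted p under 0.05, against 9.62% of all genes in that fit. The members' share was near that background. Endothelial markers summed to 505 to 539 CPM in the ecko libraries, against 552 to 655 CPM in the control libraries. Of these genes 6 of 12 were lower without overlap, against 8.11% of all genes, and none passed the edgeR test (smallest adjusted p 0.495). Macrophage markers summed to 844 to 935 CPM in the ecko libraries, against 769 to 859 CPM in the control libraries. Here 4 of 12 were higher without overlap, against 7.55% of all genes, and none passed the edgeR test (smallest adjusted p 0.150). Adipocyte markers summed to 2067 to 2531 CPM in the ecko libraries, against 2360 to 3108 CPM in the control libraries. Of these 10 genes 9 had an estimate below 0, and the median of their log2 fold changes was -0.204. Lower without overlap were 3 of the 10, against 8.11% of all genes, and none passed the edgeR test. No marker gene of these lists was at 0 in all libraries. With the muscle and cartilage marker genes taken out of the library totals, the ecko minus control difference in the members' share of counts was 0.196 percentage points. With them in it was 0.188, and the exact permutation p was 0.4 in both. The muscle marker genes held only 0.678% to 1.24% of the counts, so taking them out could move the shares little. Other RNA of muscle and cartilage stayed in the totals, so this comparison cannot show the part of those cells. Apart from the fit with the muscle level, the part of these cell types in the matrix gene levels was not tested.

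Other genes of matrix assembly and of TGF-beta signalling, a main inducer of collagen transcription, were followed in 7 lists. Of 102 listed genes 99 were in the table and 95 were tested. The edgeR test called 0 of them in either direction, and DESeq2 and limma-voom called none of the 14 named here. Groups did not overlap in 7 of 95 on the higher side and in 2 on the lower, no larger a share than the 7.55% and 8.11% of all genes. Their log2 fold changes had a median of 0.002. In TGF-beta signalling Smad2, a transcription factor of the pathway, had 85.64, 93.24 and 92.77 CPM in the ecko libraries, against 99.21, 107.3 and 115.3 CPM in the control libraries, a log2 fold change of -0.244 ± 0.071 with an adjusted p of 0.430. Tgif1, a corepressor of Smad proteins, had 53.25, 46.82 and 48.43 CPM in the ecko libraries, against 40.08, 44.16 and 43.65 CPM in the control libraries, with 0.216 ± 0.079 (adjusted p 0.508). Both had groups without overlap.

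Among the other small proteoglycans Omd, the osteomodulin gene, had 65, 64 and 46 expected counts in ecko and 27, 44 and 44 in the controls, with a log2 fold change of 0.609 ± 0.240 (adjusted p 0.526). Aspn, the asporin gene, had 0.263 ± 0.139 (adjusted p 0.611). Of the other collagens Col20a1 had 16.03, 13.4 and 16.09 CPM in the ecko libraries, against 12.25, 11.84 and 13.03 CPM in the control libraries, a log2 fold change of 0.294 ± 0.114 (adjusted p 0.516), and Col19a1 had 0.485 ± 0.226. The groups did not overlap for Omd, Col20a1 and Col19a1, all higher in ecko. Sec13, a subunit of the coat of secretory vesicles, had -0.197 ± 0.102, and P4ha1, a prolyl hydroxylase subunit gene, 0.119 ± 0.104. The procollagen proteinase genes Tll1 and Adamts2 had -0.176 ± 0.138 and 0.063 ± 0.058, and the microfibril list genes Fibin and Efemp1 had 0.178 ± 0.103 and 0.131 ± 0.078. Vcan, the versican gene, had 0.122 ± 0.088, and Ccn5 had -0.267 ± 0.205. The adjusted p of these last 9 genes ran from 0.569 to 0.755.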

How the data were processed

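Poly(A) RNA of ear skin was sequenced in 6 libraries. Values in the deposited file are expected counts for each gene, unscaled by the authors. This unit rests on the numbers themselves: 10.1% to 10.4% of those in a library carry decimals. Per the submitters' processing notes, RSEM 1.3.1, Bowtie2 2.4.5 and HISAT2 2.2.1 were used, with the build GRCm38.p6. What each tool did, which annotation was used and how strand was treated are not given in the sources used here. Reads carry no molecular identifiers.

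Counts were rounded and tested over all genes with edgeR 4.0.16 in R 4.3.3: filterByExpr (minimum count 10), TMM, robust glmQLFit, two-sided p adjusted by Benjamini-Hochberg, threshold 0.05. The SE follows from the size of the log2 fold change over the root of its F statistic, and the 95% interval uses the test's degrees of freedom. CPM is per library size after TMM. Transcript lengths are from GENCODE M21, positions and promoters from RefSeq. The test was also run on simulated data. The folds planted there were larger than the estimate of any member, so differences as small as those of the members were not covered.

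The members and lists were chosen with earlier results of these data known. Every library is given for the 2 most abundant members of each role, the 2 with the smallest unadjusted p and those without overlap, and the 2 smallest p of each pathway list are named. The other members are given by their fold change. Alternatives were DESeq2 1.42.0, limma 3.58.1 (voom), other scalings and filters, no robust estimation, a replicate block, a muscle covariate and leaving out each library.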

Additional observations from a re-analysis of the deposited data

How the results depend on the processing

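The count of members called was 0 higher and 0 lower under all 16 alternatives. The median of the members stayed within the spread of the libraries in the 10 alternatives that kept all libraries, and ran from -0.006 (without control 1) to 0.074 (without control 3) with 1 left out. Over all genes DESeq2 called 86 higher and 26 lower, the replicate block 88 and 10, the muscle covariate 43 and 7, and leaving out 1 library 0 to 2 higher and 1 lower; the cause was not tested. The block changed no call among the members. Equal replicate numbers correlated at 0.171, -0.311 and -0.046 (deviations from the group mean, across genes), and ecko 3 with control 2 at 0.382. Deviations within a group depend on each other, so these values cannot decide whether libraries share a litter or batch. The labels do not give that either. Of 550 values of 55 genes under those 10 alternatives 547 kept their direction. The 3 others turned with the muscle covariate, Lum and Sparc to 0.024 and Efemp2 to 0.029. The share difference ran from 0.05 (without control 1) to 0.374 (without control 3) percentage points. With 1 library left out, 23 of the 40 members changed sign. Log2 fold changes ran from -0.018 to 0.1 for Col1a1, -0.040 to 0.095 for Col1a2, -0.011 to 0.104 for Col3a1, -0.011 to 0.085 for Col5a1, -0.021 to 0.047 for Col6a1, -0.014 to 0.053 for Col6a2, -0.017 to 0.056 for Col6a3 and -0.043 to 0.058 for Col16a1. They ran from -0.005 to 0.141 for Dcn, -0.069 to 0.065 for Lum, -0.068 to 0.040 for Sparc, -0.033 to 0.196 for Lox, -0.050 to 0.214 for Loxl3, -0.017 to 0.046 for Plod3, -0.051 to 0.082 for Serpinh1, -0.006 to 0.077 for Bmp1 and -0.055 to 0.009 for Pcolce. Among elastic fibre genes they ran from -0.025 to 0.124 for Fbn1, -0.006 to 0.081 for Fbln1, -0.061 to 0.015 for Fbln2, -0.104 to 0.027 for Mfap4, -0.019 to 0.162 for Mfap5 and -0.104 to 0.112 for Efemp2. The other 17 kept their sign but moved: Col5a2 0.041 to 0.139, Col5a3 0.038 to 0.089, Col12a1 0.045 to 0.181, Col14a1 0.008 to 0.146, Bgn 0.002 to 0.09, Dpt -0.11 to -0.001, Fn1 0.023 to 0.151, Postn 0.055 to 0.217, Loxl1 -0.143 to -0.025, Loxl2 0.073 to 0.158, Plod1 0.02 to 0.095, Plod2 0.077 to 0.146, Eln -0.165 to -0.03, Fbn2 0.034 to 0.16, Fbln5 -0.107 to -0.021, Mfap2 -0.201 to -0.04 and Emilin1 0.01 to 0.051. The log2 ratio difference ran from -0.007 to 0.002 for Col6a1/Col6a2, -0.009 to 0.024 for Col6a3/Col6a1 and -0.016 to 0.116 for Plod2/Plod1. Depth limits Loxl3 most, at 159 to 235 expected counts per library.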
